A study of Mus musculus with 20 samples.

Results

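Immediate early genes are transcribed within minutes of a stimulus, without new protein synthesis, and many of them encode transcription factors. The 10 genes followed here in mouse heart were Fos, Fosb, Jun, Junb, Egr1, Klf4, Klf6, Zfp36, Cebpb and Atf3. All probe sets whose platform annotation gave 1 of these symbols and no other were taken, which gave 16 of the 12488 probe sets on the array and 10 of 8251 named genes. Of the 16 probe sets, 10 passed a filter that left out the dimmest 40% of probe sets, and they represented 9 genes. The Fos probe sets did not pass it. Zfp36, also called tristetraprolin, is an immediate early gene but no transcription factor: its protein binds AU-rich elements in messenger RNA and promotes their decay.

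Hearts of 20 male mice were profiled, with 5 animals per group and 1 array per animal. Old mice given both tocopherols received alpha-tocopherol and gamma-tocopherol at 500 mg/kg each. Old mice given alpha-tocopherol received 1000 mg/kg of it. Old controls and young controls ate the control diet. The 3 old groups were 30 months of age, young controls were 5 months of age, and supplements began at 15 months. All were B6/C3H hybrids and were housed singly. The strain label carries the F1 mark except for old controls 1 and 4. Because the mixed diet held less alpha-tocopherol as well as added gamma-tocopherol, the lower dose and the added form cannot be told apart.

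In textbook terms, growth factors, adrenergic signals, stretch and oxidants activate mitogen-activated protein kinases. These phosphorylate factors such as Elk1, which with serum response factor switches on Fos and Egr1. Fos and Jun proteins pair through leucine zippers to form AP-1, which binds the sequence TGANTCA, where N is C or G. Egr1, Klf4 and Klf6 are zinc finger proteins, Atf3 is a stress-induced factor of the ATF/CREB family, and Cebpb encodes C/EBP beta, a factor of inflammatory and metabolic gene programs. In heart muscle these genes are known for their early response to mechanical load and ischemia.

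The values are the authors' linear intensities, in arbitrary units, from polyadenylated RNA of frozen heart. Cardiomyocyte markers stood at the top of every array: Myh6, Tnnt2, Myl2 and Actc1 averaged at the 99.9th percentile or higher in each group. Array medians lay within 0.115 of each other on the log2 scale. Young control 3 stood apart in a T cell marker sum of 15.11 (log2 of the summed intensity), against 10.96 to 12.35 on the other 19 arrays. Old control 3 stood apart in the difference between 3′ and 5′ Gapdh probe sets, with 1.21 on the log2 scale against at most 0.19 elsewhere. Differences below are of log2(intensity + 58) ± standard error (SE), from limma over all 20 arrays, with Benjamini-Hochberg adjusted p-values over 7453 probe sets and calls below 0.05. In data simulated for the age comparison, the test found 32% of the probe sets changed by 0.5 on the log2 scale and 79% of those changed by 1. In heart RNA, fewer cells of a type and less RNA per cell cannot be told apart.

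The first comparison asks how the genes differed with age. Klf6, Zfp36 and Cebpb were lower in old control hearts than in young control hearts, and 0 members were higher. These 3 of the 9 tested genes compare with 4.94% of all tested probe sets called in either direction and 2.2% called lower. The median difference of the 9 genes was -0.21, against 0.01 over all tested probe sets. Of the 9, 7 were below 0, as were 47.6% of all tested probe sets. The members were chosen with earlier results of these data known, which limits what these shares can show. The members' AP-1 genes Fosb, Jun and Junb were not called.

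Klf6, a zinc finger factor that binds GC-rich promoters, measured 1643.7, 1859.4, 1892.9, 1752.4 and 1922 in old controls, against 2718.3, 2256, 2500.9, 2820.5 and 2418.9 in young controls. Each old control lay below each young control, as was so, in the lower direction, for 2.79% of all tested probe sets. The difference was -0.47 ± 0.11, a ratio of 0.721 (limma with Benjamini-Hochberg adjustment, adjusted p = 0.009), and it was called whichever of the 10 animals was left out (adjusted p 0.011 to 0.033).

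Zfp36 measured 1507, 1560.6, 2040.2, 1385.8 and 1632 in old controls, against 2921.8, 2714.2, 2454.8, 1952.8 and 2247 in young controls. Old control 3 reached above young control 4, and the other 4 old controls lay below all young controls. The difference was -0.58 ± 0.15 (limma adjusted p = 0.023). It was not called without young control 1 or 2 or old control 1, 2 or 4, with adjusted p up to 0.074 and differences of -0.66 to -0.51 over the 10 omissions.

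Cebpb, the brightest probe set of the members, measured 2681.7, 2655.2, 5027.4, 3217.9 and 2842.1 in old controls, against 4784.1, 6878.5, 5984.1, 4516.2 and 5062.3 in young controls. Again old control 3 was the one old animal within the young range. The difference was -0.75 ± 0.21 (limma adjusted p = 0.042). This call was made in 2 of the 10 fits with an animal left out, those without young control 4 and without old control 3, and the adjusted p reached 0.12. The call was also lost in 5 of 14 other settings, with adjusted p of 0.065 without any filter on dim probe sets, 0.066 without a variance trend, 0.056 with hybridization controls as covariate, 0.053 with the 18S level as covariate and 0.2 without old controls 1 and 4.

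With young control 3 and old control 3 both left out, these 3 genes were called, with differences of -0.49, -0.66 and -0.87 for Klf6, Zfp36 and Cebpb and adjusted p-values of 0.023, 0.022 and 0.023 (limma). Without old controls 1 and 4, which lack the F1 mark and leave 3 old animals, 0 members were called. The differences were then -0.41 for Klf6 (adjusted p = 0.1), -0.48 for Zfp36 (0.18) and -0.67 for Cebpb (0.2). The adipocyte marker sum moved with age too, at 12.39 to 12.68 in old controls and 13.0 to 13.5 in young controls (exact permutation test, adjusted p = 0.049), while limma called 0 of its 3 tested genes. Endothelial markers were called higher in old controls for 2 of 10 tested genes and atrial markers for 1 of 3, against 4.94% of all tested probe sets called. Marker sums for atrial tissue were 16.50 to 16.93 in old controls and 15.84 to 16.70 in young controls, those for skeletal muscle 14.38 to 15.08 in old controls and 14.03 to 14.77 in young controls, and those for smooth muscle 13.71 to 13.92 in old controls and 13.05 to 13.82 in young controls. These 3 sums had an unadjusted p under 0.05 and did not pass after adjustment (exact permutation test, adjusted p = 0.11, 0.085 and 0.085). The same held for the B cell sum, with a lower mean in old controls (difference -0.75, exact permutation test, adjusted p = 0.072). It was 12.4 to 12.8 in old controls and 12.78 to 14.9 in young controls, and its highest value was in young control 3. The part of these markers in the result was not tested.

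**Figure D1:**
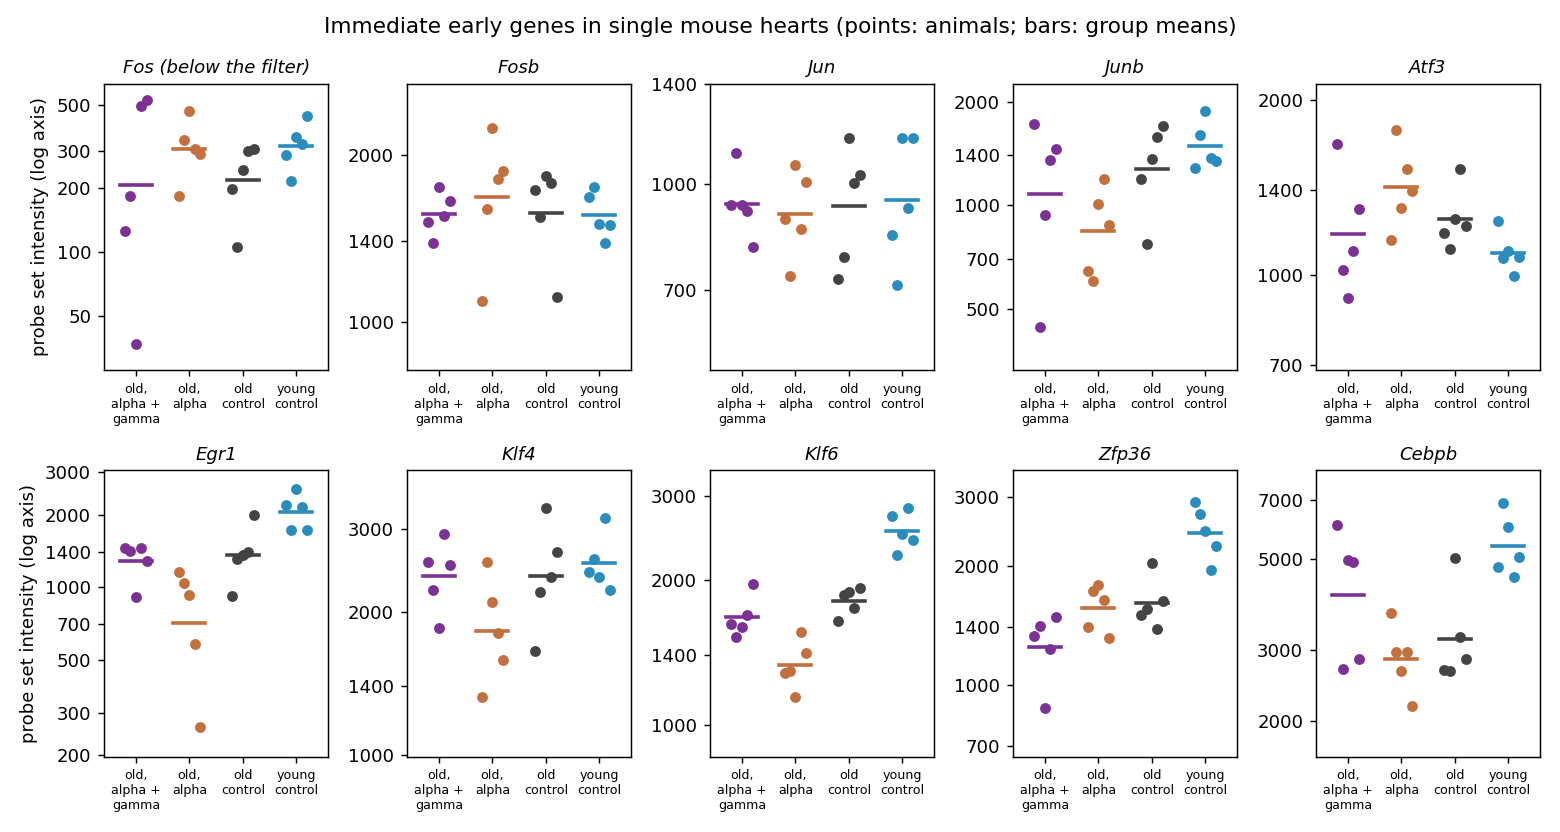
Probe set intensity (log axis, arbitrary units) of the 10 genes in each animal, with the 4 groups along each horizontal axis, points for animals and bars for group means of log2(intensity + 58). Klf6 of all old controls lies below all young controls, and Fos is shown although it did not pass the filter on dim probe sets.

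Promoters of 9 members, Fos included and Egr1 not, were read from RefSeq (build GRCm38.p6). The 3 genes lower with age are shown with Fos, the one of the 9 with a TATAAA motif. Each is the 250 bases before the gene's start, read 5′ to 3′ on the gene's strand: Klf6 at chr13:5861239-5861488 (+), Zfp36 at chr7:28379229-28379478 (-), Cebpb at chr2:167688665-167688914 (+) and Fos at chr12:85473640-85473889 (+). Capitals mark the response element core TGACG, the AP-1 motif TGANTCA, the GC box GGGCGG and the CArG box, each on either strand, and TATAAA on the gene's strand.
Klf6: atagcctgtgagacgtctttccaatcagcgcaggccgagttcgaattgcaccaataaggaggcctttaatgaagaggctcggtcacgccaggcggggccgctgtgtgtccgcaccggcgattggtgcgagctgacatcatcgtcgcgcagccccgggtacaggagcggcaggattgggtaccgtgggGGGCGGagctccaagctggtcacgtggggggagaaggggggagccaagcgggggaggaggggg
Zfp36: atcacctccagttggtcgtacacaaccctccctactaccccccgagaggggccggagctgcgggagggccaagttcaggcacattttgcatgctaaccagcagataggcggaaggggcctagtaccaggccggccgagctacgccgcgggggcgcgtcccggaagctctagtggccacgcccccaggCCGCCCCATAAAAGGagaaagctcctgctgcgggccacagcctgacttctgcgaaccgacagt
Cebpb: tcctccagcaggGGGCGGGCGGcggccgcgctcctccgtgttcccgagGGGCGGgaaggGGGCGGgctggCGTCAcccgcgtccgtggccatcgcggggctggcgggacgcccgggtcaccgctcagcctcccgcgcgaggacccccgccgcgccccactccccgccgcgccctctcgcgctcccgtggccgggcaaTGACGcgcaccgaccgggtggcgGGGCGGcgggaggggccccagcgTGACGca
Fos: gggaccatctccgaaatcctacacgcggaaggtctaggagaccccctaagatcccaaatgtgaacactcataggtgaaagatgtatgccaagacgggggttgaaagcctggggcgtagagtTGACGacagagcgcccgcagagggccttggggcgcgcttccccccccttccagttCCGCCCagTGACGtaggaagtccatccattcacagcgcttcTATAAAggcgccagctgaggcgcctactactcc

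TGACG, the core of the cyclic AMP response element, stood in 6 of the 9 member promoters and in 17.8% of 32851 promoters in the table. Cebpb held it at 3 places, starting 180, 53 and 7 bases before the start, and Fos at 2, from -129 and from -66. The full palindrome TGACGTCA was in 0 of the 9 and in 1.55% of all promoters. The AP-1 motif TGANTCA, searched with any base at N, was in 0 of the 9 and in 6.75% of all promoters. That share thus also counts A or T at N. A CArG box, the letters bound by serum response factor, was in Zfp36 at -58 to -49 and in 1.47% of all promoters. It overlaps a GGGCGG match at -63 to -58 by 1 base. The Fos window held no CArG box. Whether Fos has one outside this window was not tested, and the Egr1 promoter was not read. GGGCGG, a GC box, was in 8 of the 9 and in 32.7% of all promoters. TATAAA was in Fos at -33 to -28 and in 7.59% of all promoters. The 9 windows held 58.4% (Fos) to 81.6% (Cebpb) G and C bases, and the shares of all promoters were not matched for this. The Klf6 window held the GC box at -63 to -58 and none of the other motifs searched. A match is only a run of letters in this window, and no binding was measured.

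Egr1, whose protein is a zinc finger factor of growth and stress responses, measured 918.7, 1307.7, 1361.3, 1401.9 and 1993.2 in old controls, against 2186.1, 1727.9, 2544, 2144 and 1729.1 in young controls. Old control 5 alone reached into the young range. The difference of -0.57 ± 0.27 did not pass the test (limma adjusted p = 0.26), with a 95% interval of -1.13 to -0.01 before adjustment. Klf4, a zinc finger factor of vessel wall and stem cells, differed by -0.09 ± 0.18 (adjusted p = 0.87), with overlapping ranges of 1656.4 to 3317.8 in old controls and 2230.4 to 3167.5 in young controls.

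None of the AP-1 genes passed the test with age. Jun ranged over 726.6 to 1169.8 in old controls and 712.7 to 1169 in young controls, a difference of -0.03 ± 0.16 (limma adjusted p = 0.96). Fosb ranged over 1107.1 to 1832.6 in old controls and 1388.6 to 1747.2 in young controls, and differed by 0.02 ± 0.16 (adjusted p = 0.98). The intervals before adjustment, -0.37 to 0.32 for Jun and -0.31 to 0.35 for Fosb, leave room for modest differences either way. Junb differed by -0.21 ± 0.27 (adjusted p = 0.77, interval -0.78 to 0.36). Atf3 differed by 0.18 ± 0.15 (adjusted p = 0.6), at 1106.8 to 1519.7 in old controls and 996.7 to 1239 in young controls.

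The second comparison set old mice given alpha-tocopherol against old controls. Klf6 and Egr1 were lower in the supplemented hearts and 0 members were higher. In this comparison 21.7% of all tested probe sets were called and 12.8% were called lower, so that 2 of 9 members is a share near the background. The median of the 9 genes was -0.16, against -0.02 over all tested probe sets. Neither Zfp36 nor Cebpb, which were lower with age, was called.

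Klf6 measured 1281.1, 1292, 1143.8, 1558.6 and 1413 in alpha-tocopherol hearts, against 1643.7 to 1922 in old controls. All 5 supplemented animals lay below all old controls, as was so for 9.39% of all tested probe sets. The difference was -0.43 ± 0.11, a ratio of 0.743 (limma adjusted p = 0.0064), and it was called in all 10 fits with an animal left out (adjusted p 0.0039 to 0.021).

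Egr1 measured 1154.9, 1041.2, 929.2, 581.3 and 263.5 in alpha-tocopherol hearts, against 918.7, 1307.7, 1361.3, 1401.9 and 1993.2 in old controls. Animals 4 and 5 lay below all old controls and the other 3 within their range. The difference was -0.88 ± 0.27 (limma adjusted p = 0.024). Without alpha-tocopherol animal 5 it was -0.56 (adjusted p = 0.06), without animal 4 it was -0.81 (0.051), and without old control 5 it was -0.74 (0.074). In a fit of the 2 groups alone the adjusted p was 0.069. The other Egr1 probe set, below the filter, gave 0.33 (adjusted p = 0.72 with no filter), at 44.8 to 532.3 in alpha-tocopherol hearts and 39.4 to 294.4 in old controls.

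Technical controls moved with this comparison. The hybridization control probe sets read sequences foreign to the mouse that are added to every sample. They averaged 13.32 to 13.78 on the log2 scale in alpha-tocopherol arrays and 12.55 to 12.92 in old control arrays. The 18S ribosomal RNA probe sets averaged 12.21 to 12.74 in alpha-tocopherol arrays and 10.16 to 11.23 in old control arrays. Both differences had the smallest p that 5 against 5 arrays allow (exact permutation test, two-sided, p = 0.0079, adjusted p = 0.049 over 68 tests). A fit with the hybridization controls as covariate called 0 members, with Klf6 at -0.27 ± 0.18 (limma adjusted p = 0.46) and Egr1 at -1.34 ± 0.46 (adjusted p = 0.12). A fit with the 18S level as covariate also called 0, with Klf6 at -0.43 ± 0.17 (adjusted p = 0.18) and Egr1 at -0.63 ± 0.43 (adjusted p = 0.46). Both measures separated the 2 groups without overlap, so diet and array measure cannot be told apart in these fits. The SE grew too, for Klf6 from 0.11 to 0.18 with the hybridization controls.

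Markers of cell types moved as well, in a comparison where 21.7% of all tested probe sets were called. Cardiomyocyte markers were called higher in alpha-tocopherol hearts for 5 of 11 tested genes, with a sum of 19.80 to 20.08 against 19.55 to 19.75 in old controls. Fibroblast markers were called lower for 6 of 10 and higher for 1, with sums of 15.92 to 16.51 in alpha-tocopherol hearts and 16.28 to 16.42 in old controls. Macrophage markers were lower for 4 of 8, endothelial markers for 2 of 10 and smooth muscle markers for 2 of 4, and the smooth muscle sum was 12.77 to 13.53 in alpha-tocopherol hearts and 13.71 to 13.92 in old controls. Liver markers were lower for 3 of 5, with sums of 10.44 to 11.22 in alpha-tocopherol hearts and 11.93 to 14.33 in old controls. Skeletal muscle markers were called higher for 3 of 6 and lower for 1, and B cell markers higher for 1 of 3. No probe set was listed at 0. The part of these markers in the Klf6 and Egr1 results was not tested.

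Among the members that did not pass in this comparison, Junb gave -0.57 ± 0.27 (limma adjusted p = 0.14) and Klf4 -0.37 ± 0.18 (adjusted p = 0.13). Junb measured 646.4, 603.6, 1007.7, 1197.4 and 880 in alpha-tocopherol hearts, against 1189.7, 774.2, 1362.5, 1582 and 1699.5 in old controls, with 2 supplemented animals below all old controls. Klf4 measured 1324.2, 2555.4, 2106.8, 1809.4 and 1584.9 in alpha-tocopherol hearts, against 1656.4, 2212.3, 3317.8, 2372.3 and 2675 in old controls, and without old control 1 it was called (-0.50, adjusted p = 0.046). Cebpb differed by -0.16 ± 0.21 (adjusted p = 0.63) and Zfp36 by -0.04 ± 0.15 (adjusted p = 0.88). Atf3 differed by 0.18 ± 0.15 (adjusted p = 0.42), Fosb by 0.09 ± 0.16 (adjusted p = 0.72) and Jun by -0.04 ± 0.16 (adjusted p = 0.9).

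In the third comparison, old mice given both tocopherols differed from old controls in 0 of the 9 members by limma, while 6.43% of all tested probe sets were called. At an unadjusted p under 0.05 there was 1 gene, Zfp36 (limma adjusted p = 0.15). It measured 1332.8, 1408.1, 875.6, 1232.1 and 1486 in mixed-tocopherol hearts, against 1507, 1560.6, 2040.2, 1385.8 and 1632 in old controls. Mixed-tocopherol animals 1, 3 and 4 lay below all old controls, and the difference was -0.35 ± 0.15. Cebpb spread widely in mixed-tocopherol hearts, at 6068.6, 2690.1, 4990.4, 4922 and 2843.7, and its difference was 0.35 ± 0.21 (adjusted p = 0.33). Animals 1, 3 and 4 were near or above old control 3, the highest old control, and animals 2 and 5 were among the low old controls.

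Klf6, lower with alpha-tocopherol alone, measured 1623.4, 1521.3, 1597.8, 1691.5 and 1958.8 in mixed-tocopherol hearts, and the difference from old controls was -0.11 ± 0.11 (limma adjusted p = 0.57, 95% interval -0.33 to 0.11 before adjustment). Egr1 measured 1458.3, 1415.1, 910.5, 1447.8 and 1280.8 and differed by -0.08 ± 0.27 (adjusted p = 0.9, interval -0.64 to 0.48). Junb differed by -0.23 ± 0.27 (adjusted p = 0.67), and mixed-tocopherol animals 1 and 2, at 1728.6 and 443.8, held its highest and lowest values of all old animals. Klf4, Jun, Fosb and Atf3 differed by 0.00, 0.01, -0.01 and -0.08, with adjusted p of 0.8 or more.

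The supplements were compared with each other directly, as 1 pair of diets at unequal alpha-tocopherol doses. By limma 0 of the 9 members were called, and 0.564% of all tested probe sets were. At an unadjusted p under 0.05 stood 5 members: Klf6, Egr1, Cebpb and Klf4 with higher means in mixed-tocopherol hearts, and Zfp36 with a lower one. The 0.564% is for adjusted calls. No share of all tested probe sets at the unadjusted threshold is given, so 5 of 9 has no background here. Egr1 measured 910.5 to 1458.3 in mixed-tocopherol hearts and 263.5 to 1154.9 in alpha-tocopherol hearts, a difference of 0.80 ± 0.27 (adjusted p = 0.15, 95% interval 0.24 to 1.36 before adjustment). Klf6 measured 1521.3 to 1958.8 in mixed-tocopherol hearts and 1143.8 to 1558.6 in alpha-tocopherol hearts, a difference of 0.32 ± 0.11 (adjusted p = 0.15, interval 0.10 to 0.54). For both genes 4 mixed-tocopherol animals lay above all alpha-tocopherol animals.

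Cebpb differed between the supplements by 0.51 ± 0.21 (limma adjusted p = 0.24), Klf4 by 0.37 ± 0.18 (adjusted p = 0.3) and Zfp36 by -0.32 ± 0.15 (adjusted p = 0.3). Junb, Atf3, Fosb and Jun had adjusted p of 0.42 or more. The hybridization controls differed between these arrays too, by -0.57 on the log2 scale for mixed-tocopherol against alpha-tocopherol arrays, and the 18S probe sets by -1.14 (exact permutation test, adjusted p = 0.049 each). With the hybridization level as a covariate Egr1 differed by 1.11 (adjusted p = 0.26) and Klf6 by 0.21 (adjusted p = 0.61).

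**Figure D2:**
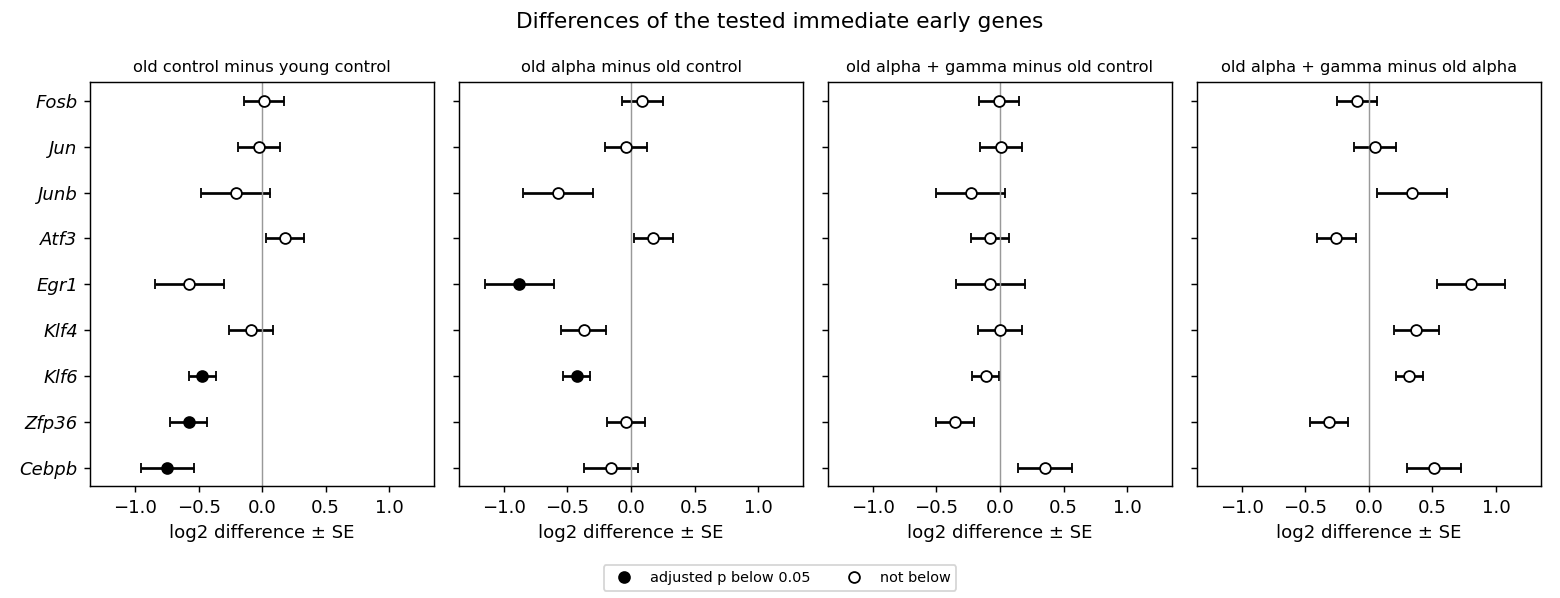
Differences of log2(intensity + 58) ± SE for the 9 tested genes (rows) in 4 comparisons (panels), filled where the adjusted p was below 0.05. Filled points are Klf6, Zfp36 and Cebpb for age, at -0.47, -0.58 and -0.75, and Klf6 and Egr1 for alpha-tocopherol, at -0.43 and -0.88; the panels share their control animals.

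Both supplemented old groups were also set against young controls. These comparisons share the young controls with the age comparison, and each is given by its own values. Alpha-tocopherol hearts had 4 of 9 members called lower, against 15.6% of tested probe sets called and 8.87% called lower. They were Klf6 at -0.90 ± 0.11 (limma adjusted p = 8.1e-06), Egr1 at -1.45 ± 0.27 (0.001), Cebpb at -0.90 ± 0.21 (0.0058) and Zfp36 at -0.62 ± 0.15 (0.0068). In each of the 4 genes all alpha-tocopherol animals lay below all young controls, as was so for 6.13% of tested probe sets. Junb, at 603.6 to 1197.4 in alpha-tocopherol hearts and 1285.4 to 1882.1 in young controls, did not overlap and was not called (-0.78 ± 0.27, adjusted p = 0.057).

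The technical controls separated these arrays as well. The hybridization controls averaged 13.32 to 13.78 in alpha-tocopherol arrays and 12.51 to 13.04 in young control arrays, and the 18S probe sets 12.21 to 12.74 in alpha-tocopherol arrays and 10.13 to 10.77 in young control arrays. With the hybridization covariate 3 of the 4 genes were called and Zfp36 was not (-0.52, limma adjusted p = 0.29). With the 18S covariate Klf6 alone was called (-0.90, adjusted p = 0.021), and the others gave -1.17 for Egr1 (0.24), -0.61 for Cebpb (0.45) and -0.95 for Zfp36 (0.063). Each of the 4 was called in all 10 fits with an animal left out.

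Mixed-tocopherol hearts had 2 of 9 members called lower than in young controls, against 5.55% of tested probe sets called and 3.11% called lower. Zfp36 differed by -0.93 ± 0.15 (limma adjusted p = 0.00068) and Klf6 by -0.58 ± 0.11 (adjusted p = 0.0024), both without overlap, as was so in the lower direction for 3.48% of tested probe sets. Both were called with either covariate and in all 10 fits with an animal left out. Egr1 also lay below all young controls in all 5 animals, but its difference of -0.65 ± 0.27 did not pass the test (adjusted p = 0.18). Cebpb differed by -0.39 ± 0.21 (adjusted p = 0.31).

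The order of the 4 group means differed among the genes. From low to high, Klf6 ran in the order alpha-tocopherol hearts, mixed-tocopherol hearts, old controls and young controls, with mean log2 levels of 10.44 ± 0.16, 10.76 ± 0.13, 10.87 ± 0.09 and 11.34 ± 0.13 (SD, n = 5 each). Zfp36 ran in the order mixed-tocopherol hearts, alpha-tocopherol hearts, old controls and young controls, at 10.35 ± 0.29, 10.67 ± 0.19, 10.71 ± 0.20 and 11.28 ± 0.22. In both, the step between neighbours that passed the test was that between old and young controls. Egr1 had the order of Klf6, at 9.59 ± 0.79, 10.39 ± 0.27, 10.47 ± 0.38 and 11.04 ± 0.23, and none of its neighbouring steps passed. For Fosb, Jun and Atf3 no neighbouring groups differed, with adjusted p of 0.42 or more.

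The Fos probe sets were dim. The brighter of them, at the 33.1 percentile of all probe sets by mean, measured 125.7, 183.6, 36.8, 491.5 and 523.4 in mixed-tocopherol hearts and 183.7, 338.6, 467.9, 307 and 292.4 in alpha-tocopherol hearts. It measured 198.6, 106.1, 244.3, 300.9 and 307.1 in old controls and 287, 216, 351.4, 325.5 and 441.9 in young controls. All groups overlapped, and mixed-tocopherol hearts held both its lowest value and its highest. With no filter on dim probe sets, old against young controls gave -0.43 (limma adjusted p = 0.75), alpha-tocopherol against old controls 0.39 (adjusted p = 0.54) and both tocopherols against old controls -0.06 (adjusted p = 0.96). The other Fos probe set, at the 19.3 percentile, ranged from 30.1 to 314.2 over the 20 arrays.

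Where a gene had several probe sets they did not always move together. Atf3 had 1 tested probe set, with a mean intensity of 1245, and 2 dim ones, with means of 115 and 42. Whether any member's probe set also reads similar transcripts of other genes was not tested. The dim ones did not overlap between alpha-tocopherol hearts and old controls, as was so in the higher direction for 6.84% of tested probe sets: one measured 123.5 to 205.6 in alpha-tocopherol hearts and 80.2 to 110.2 in old controls, and the other 48.2 to 54.5 in alpha-tocopherol hearts and 33.3 to 40.1 in old controls. Neither was called with no filter (limma adjusted p = 0.13 and 0.33, with 13.3% of probe sets called), and the tested one overlapped. The 6.84% is a share of brighter probe sets, to which the dim ones do not belong. With no filter the median difference over all probe sets was 0.07 in this comparison, against -0.02 over the tested ones. The second tested Junb probe set, at 101.2 to 923 in old controls and 603.9 to 963.3 in young controls, differed by -0.77 ± 0.55 (adjusted p = 0.52). Old controls 1 and 2, at 235.2 and 101.2, lay below all young controls and the other 3 within their range. The second Klf4 probe set stood at the 0.419 percentile, between 4 and 134.5 on all arrays.

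The members were also counted by animal. Of the 9 tested genes, mixed-tocopherol animals had 2 to 6 above their median over the 20 arrays and alpha-tocopherol animals 1 to 4. Old controls were split: animals 1 and 2 had 1 gene each above the median, and animals 3, 4 and 5 had 8, 7 and 7. Young controls had 6 or 7. Old control 3, the array with the unusual Gapdh difference, was the highest old control in 5 of the 9 genes, and old control 1, without the F1 mark, was the lowest in 4.

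**Figure D3:**
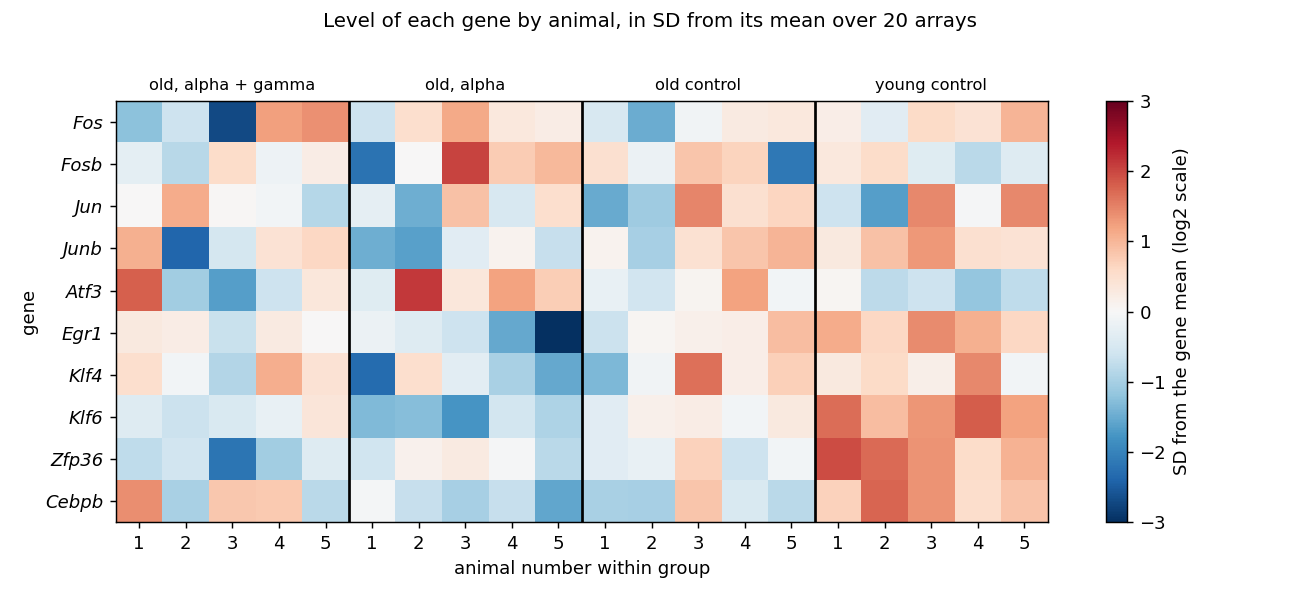
Level of each gene (rows) in each animal (columns, by group), in SD from the gene's mean log2 level over the 20 arrays, with red above and blue below the mean. Old controls 1 and 2 have 1 of the 9 tested genes each above its median against 7 or 8 in the other old controls, and young controls are mostly red; Fos, in the top row, is below the filter.

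The genes whose levels ran most like the members' were ranked by Pearson's r over the 20 arrays with the mean of the 9 standardised levels. The highest of 5654 named genes were Ccn2 (r = 0.799), a matrix-associated growth factor, Gsk3a (0.792), a kinase, Thrap3 (0.782), Cebpd (0.773), which encodes C/EBP delta, and Ackr3 (0.767), a chemokine receptor, while the median gene had r = -0.001. These arrays share their group structure. After subtraction of group means the highest were Akt1 (0.752), Bysl (0.744), 1110004F10Rik (0.722), Myef2 (0.698) and Wdr48 (0.686), and the median was -0.016. Given the number of genes ranked over 20 arrays, the values are a description.

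Genes around the members in the pathway were followed in 5 lists. Of 17 tested upstream kinases and factors, 1 rose and 0 fell with age, 2 rose and 1 fell with alpha-tocopherol, and 1 rose and 1 fell with both tocopherols. The background stays at 4.94%, 21.7% and 6.43% of tested probe sets. The list medians for these comparisons were -0.01, -0.19 and 0.02, against 0.01, -0.02 and -0.01 over all tested probe sets.

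Map2k1, the kinase MEK1 upstream of ERK, measured 1843.2, 1777.6, 1905.4, 2027 and 2351.3 in old controls, against 1250.4, 1067.6, 1276.4, 1522.7 and 1236.6 in young controls, a rise of 0.62 ± 0.16 (limma adjusted p = 0.02) that was lost without young control 2 or old control 5. It was lower in alpha-tocopherol hearts than in old controls, at 974.4, 1344.5, 898.1, 1171.4 and 1493.9, a difference of -0.74 ± 0.16 (adjusted p = 0.0019). In mixed-tocopherol hearts the difference was -0.62 ± 0.16 (adjusted p = 0.021), a call lost without old control 5 or mixed-tocopherol animal 1 or 2. In each of these 3 comparisons the groups did not overlap, as was so in the same direction for 4.23%, 9.39% and 4.94% of all tested probe sets for age, alpha-tocopherol and both tocopherols.

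Elk1, the factor that phosphorylation couples to serum response factor, measured 934.1, 1078, 821.7, 1016.9 and 1262.1 in mixed-tocopherol hearts and 1259.6, 910.2, 958, 729.5 and 922.9 in alpha-tocopherol hearts, against 386.2, 544.5, 334.9, 445.1 and 286.6 in old controls. Neither supplemented group overlapped the old controls, as was so in the higher direction for 3.38% and 6.84% of tested probe sets with both tocopherols and with alpha-tocopherol. The rises were 1.25 ± 0.21 (limma adjusted p = 0.0012) and 1.16 ± 0.21 (adjusted p = 0.00045). With the hybridization control covariate they were 1.29 (adjusted p = 0.0045) and 1.26 (adjusted p = 0.068). Map2k3, a kinase of the p38 branch, rose by 0.48 ± 0.11 with alpha-tocopherol (adjusted p = 0.0032).

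Feedback regulators are phosphatases and inhibitors that the same signals induce. Of 11 tested, 1 fell with age, the NF-kappa-B inhibitor Nfkbia (-0.51 ± 0.15, limma adjusted p = 0.046), which was called in 2 of 10 fits with an animal left out, those without young control 5 and without old control 3, and in 6 of 14 other settings. With alpha-tocopherol 2 fell, the kinase phosphatases Dusp1 and Dusp6, and with both tocopherols 0 of the 11 were called, where 1, Dusp1, had an unadjusted p under 0.05 (limma adjusted p = 0.11). The list medians were -0.24, 0.13 and -0.04 for age, alpha-tocopherol and both tocopherols, so that the median and the calls for alpha-tocopherol differ in sign. Dusp1 measured 4091.3, 6959.6, 5634, 4505.3 and 4684 in alpha-tocopherol hearts, against 6506.4, 6264.8, 11102.3, 7541.1 and 8990.5 in old controls, a difference of -0.63 ± 0.16 (adjusted p = 0.0067). Alpha-tocopherol animal 2 was the one above the lowest old controls. Old control 3 was again the highest. Dusp6 differed by -0.55 ± 0.19 (adjusted p = 0.043), a call made in 5 of 10 fits with an animal left out, and lost without old control 4 or 5 or alpha-tocopherol animal 3, 4 or 5.

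Other immediate early genes, 31 tested, had 2 higher and 1 lower with age, 3 higher and 7 lower with alpha-tocopherol, and 1 lower with both tocopherols, and the list medians in that order of comparisons were -0.14, -0.10 and -0.11. With age Plk2, a stress-induced kinase, rose by 0.53 ± 0.13 (limma adjusted p = 0.013), and the repressor Bhlhe40 rose by 0.60 ± 0.16 (adjusted p = 0.028, called in 4 of 10 fits with an animal left out, those without young control 1, 4 or 5 or old control 3). Btg2, an antiproliferative gene, fell (-0.64 ± 0.18, adjusted p = 0.046), a call made in 2 of 10 such fits, without young control 4 and without old control 5, and in 7 of 14 other settings.

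Gadd45a, a growth arrest gene of this list, measured 805.4, 915, 904.9, 369.7 and 822.6 in mixed-tocopherol hearts and 326.5, 843.4, 623.8, 288.2 and 681.9 in alpha-tocopherol hearts, against 1321.7, 1206.5, 1565, 1509.6 and 1337.4 in old controls. Neither supplemented group overlapped the old controls, as was so in the lower direction for 4.94% and 9.39% of tested probe sets, and the differences were -0.87 ± 0.25 (limma adjusted p = 0.037) and -1.34 ± 0.25 (adjusted p = 0.00062). The first was called in 3 of 10 fits with an animal left out, those without mixed-tocopherol animal 2, 3 or 5, and in 9 of 13 other settings. The second was called in all 10 such fits. Tsc22d1 (-1.07 ± 0.18, adjusted p = 0.00024), the kinase Sgk1 (-0.78 ± 0.18, adjusted p = 0.0045) and Zfp36l1, a relative of Zfp36 (-0.71 ± 0.16, adjusted p = 0.003), fell with alpha-tocopherol. Zfp36 itself was not called in that comparison.

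Relatives and dimer partners, 21 tested, had 0 called with age and with both tocopherols, and 1 higher and 3 lower with alpha-tocopherol. Jund, a Jun relative that is expressed without stimulation, was the one that rose (0.56 ± 0.14, limma adjusted p = 0.0056). It also stands among the other immediate early genes and is counted in both lists. Those that fell were Atf2, a Jun partner (-0.63 ± 0.15, adjusted p = 0.0038), Klf7 (-0.83 ± 0.27, adjusted p = 0.031) and Zfp36l1, which stands in both lists. The Klf7 call was lost without old control 3 or 5 or alpha-tocopherol animal 3 or 5. For the comparisons with 0 calls by limma, 5 genes had an unadjusted p under 0.05 with age and 1, Jund, with both tocopherols (0.31 ± 0.14, adjusted p = 0.17). No share of all tested probe sets at that threshold is given beside them. The list medians were -0.17, 0.01 and 0.01 for age, alpha-tocopherol and both tocopherols.

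Genes known in other settings as targets of AP-1, Egr1 or C/EBP beta, 19 tested, had 1 higher and 2 lower with age, 1 lower with alpha-tocopherol and 0 by limma with both, where 7 had an unadjusted p under 0.05. That count of 7 also has no background share here. Their medians in that order of comparisons were -0.06, -0.08 and 0.03. Mt2, a metal-binding metallothionein, measured 4460.8, 5715.7, 5762.3, 6499.6 and 3232.7 in old controls, against 15563.5, 22091.9, 10708.3, 10416.2 and 12374.7 in young controls, a difference of -1.44 ± 0.20 without overlap (limma adjusted p = 9.3e-05). Mt1 fell too (-0.78 ± 0.20, adjusted p = 0.026), a call lost without young control 1 or 2 or old control 1 or 5. Ccnd1, the cell cycle regulator cyclin D1, rose by 1.03 ± 0.14 (limma adjusted p = 0.00012). It measured 2829.4 to 4466.2 in old controls and 1376.7 to 1949.9 in young controls, without overlap. With age, 2.79% of all tested probe sets were lower without overlap and 4.23% were higher without overlap. Vegfa, a vessel growth factor, fell with alpha-tocopherol (-0.62 ± 0.18, adjusted p = 0.015), a call lost without old control 5. Over the 10 omissions the adjusted p reached 0.00061 for Mt2 and 0.00069 for Ccnd1.

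With alpha-tocopherol, 13 of the called list genes are named by the rule for named genes. Of these, 0 were called in the fit with hybridization controls as covariate and 1, Gadd45a, in that with the 18S level. Both covariates separated alpha-tocopherol from old control arrays without overlap, so the lost calls cannot tell diet from array measure. With age, 7 of the 8 named list genes were called under each covariate, 2, Mt2 and Ccnd1, without old controls 1 and 4, and 4 in a fit of the compared groups alone. With both tocopherols the 3 named list genes were Elk1, Map2k1 and Gadd45a. Elk1 was called with either covariate and without old controls 1 and 4, Gadd45a with the 18S covariate only, and Map2k1 in none of these 3 fits.

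Cell type markers moved with both tocopherols too, where 6.43% of all tested probe sets were called. Against old controls, limma called fibroblast markers lower for 4 of 10 tested genes and higher for 1, endothelial markers lower for 3 of 10, liver markers lower for 3 of 5, and 1 each lower of the atrial, smooth muscle and macrophage markers, and 1 skeletal muscle marker higher. The smooth muscle sum was 12.66 to 13.43 in mixed-tocopherol hearts and 13.71 to 13.92 in old controls, the atrial sum 16.01 to 16.45 in mixed-tocopherol hearts and 16.50 to 16.93 in old controls, and the liver sum 10.37 to 11.10 in mixed-tocopherol hearts and 11.93 to 14.33 in old controls (exact permutation test, adjusted p = 0.049 each). The part of these markers in the Elk1, Map2k1 and Gadd45a results was not tested. Between the supplements limma called 0 genes of the 5 lists, and 0 to 5 genes per list had an unadjusted p under 0.05, again with no background share.

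**Figure D4:**
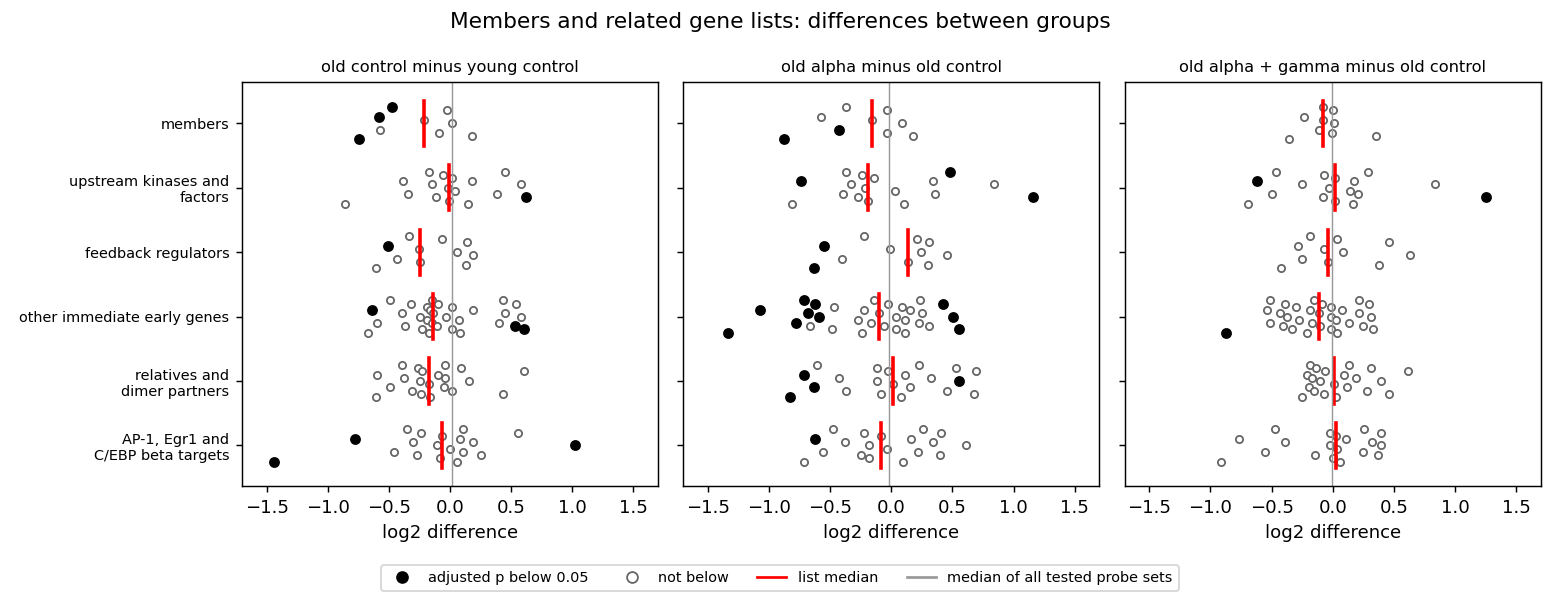
Differences of log2(intensity + 58) for each tested member and each tested gene of the 5 lists (rows) in 3 comparisons (panels), filled where the adjusted p was below 0.05, with a red bar at each list's median and a grey line at the median of all tested probe sets. The alpha-tocopherol panel has the most filled points, on both sides of 0, as among all probe sets (21.7%).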

How the data were processed

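Transcript levels were measured in 20 mouse hearts, with 1 array per animal and 5 animals per group. The deposited table holds the authors' linear intensity for 12488 probe sets on each array. Per the labels' protocols, polyadenylated RNA was purified from TRIZOL-extracted RNA, and biotin-labelled complementary RNA was made and fragmented. The software and scaling behind the intensities are not given in the sources used here, and no detection calls were used.

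The deposited scaling was kept. Values were taken as log2(intensity + 58), 58 being the 10th percentile of all values, which understates fold changes of dim probe sets. Control probe sets (66) were excluded, and so were the dimmest 40% of the remaining 12422, those with a mean under about 362. One limma model (version 3.58.1, R 4.3.3) held the 4 group means, with a variance trend and robust moderation in eBayes and 16 residual degrees of freedom, and p-values were adjusted by Benjamini-Hochberg over 7453 probe sets. A gene was read from its brightest tested probe set. Dim members were fitted without the filter. Background shares are of adjusted calls or of groups without overlap, and none is given for an unadjusted p under 0.05. On simulated data 3.48% of calls were false. Precision is limited by the number of arrays, with a median SE of 0.179 for a difference. Array measures were compared by two-sided exact permutation tests with 252 assignments. No arrays held identical values.

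Platform symbols (10833 probe sets with 1, 396 with several, 1193 with none) were checked against RefSeq GRCm38.p6. Promoter windows of 250 bases were scanned in Python 3.11.15. The members, lists and tests were chosen with earlier results of these data known. The named genes were the 10 members, up to 4 called genes with the smallest p per related list and comparison (2 where 0 were called), and the 5 genes most like the members' mean over arrays, before and after subtracting group means. Of these the text names most. Alternatives were pseudocounts of 16 and 200, other filters, other scalings, array weights, a fit with no variance trend, covariates, a replicate block, fits of the compared groups alone, and omissions of animals.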

Additional observations from a re-analysis of the deposited data

Results flagged for a closer look

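Of 64 groups of 5 arrays checked over the 16 probe sets, 1 held an animal far from the others. Egr1 in mixed-tocopherol animal 3 measured 910.5, against 1280.8 to 1458.3 in the other 4 animals of its group. Taken on the log2 scale, and not on the intensities above, the gap to its neighbour was 0.722 of the group's range. This lay above the critical value of 0.71. The mark holds for the log2 scale only. Chance marks about 1 in 20 such groups. The cause was not tested.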

How the results depend on the processing

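Called member differences kept their direction under every alternative run, which for the comparisons with young controls of the supplemented groups covered the called members alone, in fits chosen after seeing the data. Of 978 member values at other settings 67 changed sign, 0 of them among called differences, and their lowest adjusted p was 0.67. Another 32 lost a call and 1 gained one. The members called with age numbered 3 in the main fit and 0 without old controls lacking the F1 mark. Those called with alpha-tocopherol numbered 2, and 0 with the hybridization control covariate, 0 with the 18S covariate and 1 with the compared groups alone. With an animal left out they were 1 to 3 for age and 1 to 3 for alpha-tocopherol. Both tocopherols gave 0 in every setting, against old controls and against alpha-tocopherol. Against young controls, the 4 members called with alpha-tocopherol became 1 with the 18S covariate and 4 to 5 with an animal left out, and the 2 called with both tocopherols stayed at 2 with an animal left out. For all of these moves the cause was not tested.

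The replicate numbers did not pair the samples, with correlations of same-numbered deviations of at most 0.101, and a replicate block called 3, 2, 0 and 0 members, with Cebpb for age at -0.75 in the blocked fit. Over the whole table, 368 probe sets were called for age, 731 with array weights and 150 without old controls lacking the F1 mark. For alpha-tocopherol 1619 were called, 144 with the hybridization covariate, 142 with 18S and 981 without those old controls. For both tocopherols 479 were called, 858 with array weights, 242 with the hybridization covariate, 162 without those old controls and 263 to 447 with an animal left out. Between supplements 42 were called, 11 with no filter, 64 with the dimmest 60% left out, 23 with median-centred arrays, 11 with no variance trend, 7 with array weights, 0 with either covariate or the groups alone, and 0 to 79 with an animal left out.

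The uncalled differences that changed sign were as follows, on the log2 scale. For both tocopherols against old controls, Klf4 was -0.001 with pseudocount 200 and -0.022 with median-centred arrays, Jun was -0.012 with median-centred arrays and -0.0047 with quantile normalization, Fosb was 0.0081 with quantile normalization, and Egr1 was 0.087 with array weights and 0.0036 with the 18S covariate. With the hybridization covariate they were 0.0024 for Atf3, 0.083 for Fosb, -0.062 for Jun and -0.028 for Klf4. Without the old controls lacking the F1 mark they were 0.093 for Fosb, -0.066 for Jun and -0.17 for Klf4, and Fosb was 0.047 without young control 3 and old control 3. For alpha-tocopherol, Jun was 0.085 with array weights, 0.049 with 18S and 0.042 without that pair. Zfp36 was 0.073 with the hybridization covariate and 0.044 without the pair, Cebpb was 0.11 with 18S and 0.0056 without the pair, and Fosb was -0.014 with 18S. For age, Fosb was -0.011 with the hybridization covariate, -0.084 without the unmarked old controls and -0.0499 without the pair, and without the unmarked old controls Jun was 0.049 and Klf4 0.086. Between supplements, Jun was -0.012 with 18S.

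With an animal left out, sign changes fell within these ranges. For age they were -0.037 to 0.14 for Fosb, -0.12 to 0.057 for Jun and -0.20 to 0.041 for Klf4. For alpha-tocopherol they were -0.25 to 0.0056 for Cebpb, -0.032 to 0.24 for Fosb, -0.12 to 0.042 for Jun and -0.091 to 0.044 for Zfp36. For both tocopherols they were -0.20 to 0.0079 for Atf3, -0.21 to 0.058 for Egr1, -0.13 to 0.047 for Fosb, -0.073 to 0.089 for Jun, -0.40 to 0.064 for Junb and -0.13 to 0.12 for Klf4. Between supplements they were -0.24 to 0.0052 for Fosb and -0.024 to 0.10 for Jun.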
